A study of Homo sapiens with 48 samples.

Results

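This report follows 10 human genes of the JmjC histone demethylase family in HEK293T cells: KDM2A, KDM3A, KDM3B, KDM4A, KDM4B, KDM4C, KDM5B, KDM6A, KDM6B and KDM7A. They are 10 of the 14685 genes in the count tables, found by matching Ensembl identifiers to gene symbols, and all 10 passed the filter on low counts. The group was chosen by measured values, namely the lower KDM3A in the T-REX samples, so every comparison of a member between T-REX and a control is given below as a description. The word called, used of a member in these comparisons, says only on which side of the threshold the fit of all genes put it, and it supports nothing. HEK293T is a human embryonic kidney line. The cells were transiently transfected with a plasmid for NCBP1 (wild type), a subunit of the nuclear complex that binds the cap of messenger RNA, fused to the Halo tag, and each of the 12 groups shares this overexpression. T-REX delivers the lipid-derived electrophile HNE (hydroxynonenal) to the Halo fusion: a photocaged precursor, Ht-PreHNE(alkyne), binds Halo and light then releases HNE. RNA was collected 3, 6 and 12 h after the reaction.

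The 4 arms were T-REX (probe and light), light alone, probe alone and DMSO, each with 4 libraries per time point, which gave 48 libraries. Probe alone received Ht-PreHNE without light, and DMSO received neither probe nor light. For light alone, the study's methods list Ht-PreHNE and light, which as worded does not set this arm apart from T-REX, and the labels give only "UV". The total counts ran from 23952455 to 37099535 per library, and replicates of a group differed by more than counting error. Of 6 genes fixed as markers of HEK293T, 5 were listed: INA at 46.7 to 92.1 CPM (counts scaled to the same library total), NEFM at 22.2 to 46.4, KRT18 at 7.14 to 13.4, KRT8 at 4.39 to 10.4 and LHX1 at 0.771 to 3.15. PAX2 and the 5 markers of blood, liver, pancreatic and endothelial cells (PTPRC, CD68, ALB, INS, PECAM1) were not among the listed genes. NCBP1, whose counts add the plasmid's transcript to the cell's own, lay between 30800 and 92200 CPM. In bulk RNA, a change in the number of cells and a change in RNA per cell cannot be told apart.

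Histone lysine demethylases with a JmjC domain remove methyl groups from histone tails in a reaction that uses iron, oxygen and 2-oxoglutarate, and succinate, formaldehyde and carbon dioxide are its products. KDM3A and KDM3B act on H3K9 mono- and dimethylation, a mark of silent chromatin, and the KDM4 enzymes act on H3K9 and H3K36 trimethylation. KDM2A acts on H3K36, KDM5B on H3K4 methylation of active promoters, KDM6A and KDM6B on the Polycomb mark H3K27 trimethylation, and KDM7A on H3K9 and H3K27 dimethylation. KDM3A and KDM4B are known as genes that hypoxia-inducible factor (HIF) raises when oxygen is low.

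Since KDM3A is known as a HIF target, the letters of the HIF core motif were searched in the promoters of the members, in RefSeq sequences of GRCh38.p14 that run across each annotated gene start. Both forms of the core, ACGTG and GCGTG, were read on both strands, and the palindrome CACGTG, a site of other factors as well, holds ACGTG on each strand and so counts as 2 matches. KDM3A is the member on which the group turns, and KDM7A is the only other one called in a T-REX comparison in the main fit, without covariates. KDM4C had no call in any comparison. The promoters of KDM3A, KDM7A and KDM4C are printed with the matches in capitals. They lie at chr2:86441121-86441420 on the plus strand, chr7:140176934-140177233 on the minus strand and chr9:6757723-6758022 on the plus strand.
KDM3A: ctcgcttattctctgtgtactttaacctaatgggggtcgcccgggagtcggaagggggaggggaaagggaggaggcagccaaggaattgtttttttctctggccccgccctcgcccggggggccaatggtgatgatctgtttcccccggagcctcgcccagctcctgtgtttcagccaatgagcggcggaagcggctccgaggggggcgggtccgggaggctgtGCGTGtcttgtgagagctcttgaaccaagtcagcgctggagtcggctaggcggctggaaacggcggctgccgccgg
KDM7A: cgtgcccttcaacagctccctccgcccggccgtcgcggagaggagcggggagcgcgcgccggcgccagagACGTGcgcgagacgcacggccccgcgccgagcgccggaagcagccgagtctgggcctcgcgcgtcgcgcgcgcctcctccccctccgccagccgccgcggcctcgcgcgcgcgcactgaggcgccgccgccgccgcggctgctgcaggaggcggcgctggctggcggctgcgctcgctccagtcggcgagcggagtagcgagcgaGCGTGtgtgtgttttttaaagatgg
KDM4C: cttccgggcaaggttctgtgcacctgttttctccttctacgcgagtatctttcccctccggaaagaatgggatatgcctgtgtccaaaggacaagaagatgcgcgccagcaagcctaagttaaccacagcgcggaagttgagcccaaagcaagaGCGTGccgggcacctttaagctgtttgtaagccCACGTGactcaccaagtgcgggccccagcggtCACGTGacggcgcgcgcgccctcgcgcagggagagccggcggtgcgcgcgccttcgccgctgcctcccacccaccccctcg
The KDM3A window held 1 GCGTG and no ACGTG, and a second annotated start of KDM3A (chr2:86441211-86441510) covers the same match. The KDM7A window held 1 ACGTG and 1 GCGTG, and the KDM4C window held 4 matches to ACGTG, from 2 copies of the palindrome, and 1 to GCGTG. Over the 13 windows of the 10 members, 9 members held at least 1 match, 4 of them ACGTG and 9 GCGTG, and KDM3B held neither. Of 35116 human promoter windows of this length, 21.4% held ACGTG, 36.5% held GCGTG and 48.4% held either. These shares count windows, while a member was counted when any of its windows held a match, so the 2 are not alike. KDM2A and KDM6B each had another window without a match. Such a match is a run of letters and was not tested as a binding site.

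Per length, KDM6A was the most abundant member. In DMSO cells at 3 h it reached 35.3 ± 1.05 CPM per kilobase of annotated exon (SD, n = 4), and KDM3B followed at 24.7 ± 0.866. KDM2A (13.1 ± 0.615) and KDM3A (12.4 ± 0.515) came next, and the ranges of their libraries overlapped. KDM7A (10.1 ± 0.465), KDM6B (9.16 ± 1.72) and KDM5B (7.94 ± 0.335) formed the middle, where each overlapped with its neighbour in the order. The lowest were KDM4A (3.85 ± 0.154), KDM4B (2.45 ± 0.364) and KDM4C (2.22 ± 0.11), and the last 2 overlapped. The lengths are those of all annotated exons joined, from 5172 bases for KDM4A to 25882 for KDM5B, so that a member with many unused exons is placed too low in this order. Over all 48 libraries, KDM5B and KDM4C varied least, with the highest library 1.25 and 1.32 times the lowest. KDM4B (2.13 times), KDM6B (2.08), KDM3A (2.02) and KDM7A (1.87) varied most.

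KDM3A (ENSG00000115548) was lower in the T-REX libraries than in each control library of the same time point. At 3 h, its level in the 4 T-REX libraries was 134.8, 138.3, 117.2 and 120.8 CPM. With light alone it was 151.1, 141.4, 148.1 and 145.1 CPM. With probe alone it was 157.9, 162.5, 151.5 and 149.7 CPM, and with DMSO 162.8, 171.2, 158.5 and 173.1 CPM. The highest T-REX library thus lay just under the lowest light alone library, and the mean was highest with DMSO, whose libraries overlapped with probe alone and not with light alone.

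At 6 h, KDM3A stood at 139.7, 137.1, 141.9 and 133.5 CPM in the T-REX libraries. Light alone gave 159.3, 172.6, 177.0 and 157.2 CPM. Probe alone gave 188.8, 208.0, 178.7 and 168.3 CPM, and DMSO gave 165.8, 181.6, 158.9 and 184.3 CPM. The T-REX libraries were close to each other (SD of 3.59 CPM) and below the 3 controls, which overlapped with each other. At 12 h, the T-REX libraries held 144.9, 154.4, 163.9 and 162.3 CPM of KDM3A. The corresponding values were 212.9, 232.2, 228.9 and 208.7 CPM with light alone. They were 203.5, 199.3, 209.9 and 183.9 CPM with probe alone and 170.6, 232.3, 236.6 and 206.6 CPM with DMSO. One DMSO library, replicate 1, lay near the T-REX range, and the other control libraries lay well above it. Across the 12 groups, the mean level was highest with light alone at 12 h (220.7 ± 11.6 CPM, SD, n = 4) and lowest in T-REX at 3 h (127.8 ± 10.3), and each group overlapped with its neighbour in this order. T-REX at 12 h (156.4 ± 8.71 CPM) took the eighth place, between DMSO (166.4 ± 6.92) and probe alone (155.4 ± 5.93) at 3 h.

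**Figure D1:**
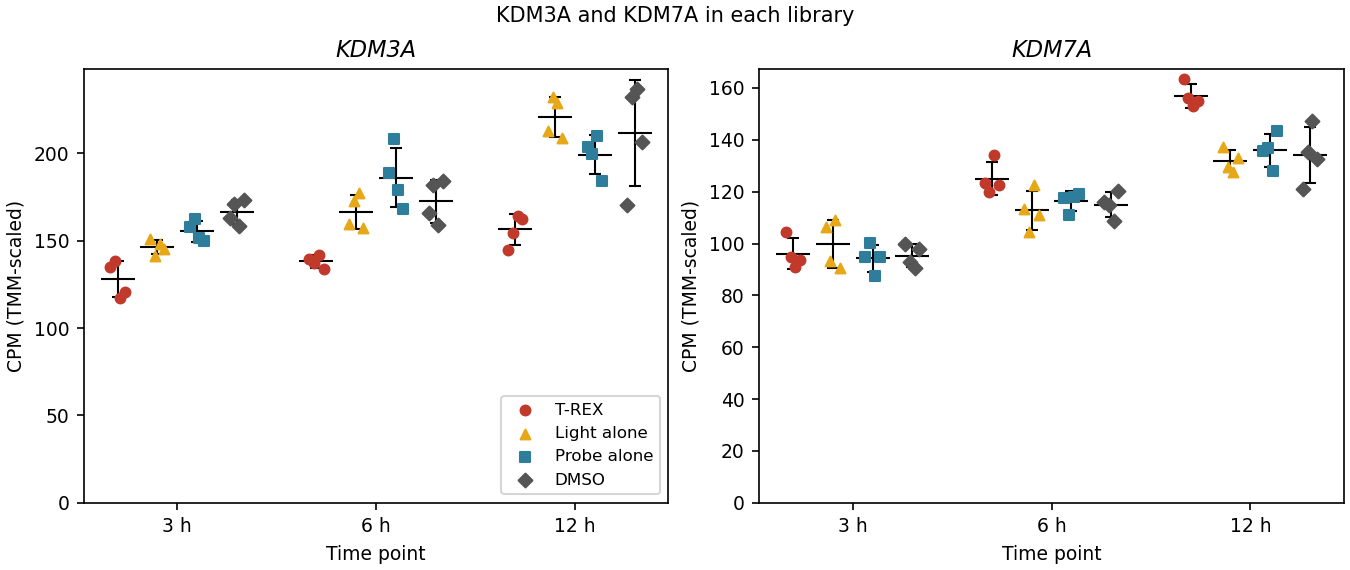
Level of KDM3A (left) and KDM7A (right) in CPM scaled by TMM factors, by time point and arm. Each point is a library, and the bars are the mean and SD of 4 libraries. The T-REX libraries of KDM3A lie below the 12 control libraries at each time point, and those of KDM7A lie above them at 12 h (152.9 to 163.4 CPM against 120.9 to 147.2).

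The fitted difference of KDM3A was 12.8 to 23% lower at 3 h, 17.2 to 25.8% at 6 h and 21.7 to 29% at 12 h, over the 3 controls. At 3 h, the log2 fold change of T-REX relative to DMSO was −0.38 (SE 0.051), that relative to probe alone −0.27 (SE 0.051) and that relative to light alone −0.20 (SE 0.051). At 6 h it was −0.32, −0.43 and −0.27 (each with an SE of 0.063), in the same order. At 12 h it was −0.44, −0.35 and −0.49 (each with an SE of 0.077). The 3 values of a time point share the same T-REX libraries. A gene was called when its adjusted p over all genes was 0.05 or less. KDM3A was called lower in 7 of 9 comparisons, and the values relative to light alone at 3 and 6 h were not called. Since the group was chosen on these values, the calls are a description, and nothing is read from them.

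For reference, T-REX and DMSO differed in 5.99% of all genes at 3 h by the same rule, T-REX and probe alone in 1.05%, and T-REX and light alone in 0.197%. The shares were 0.415%, 0.109% and 0.218% at 6 h and 10.9%, 0.701% and 1.29% at 12 h, again in this order. Genes for which the 4 T-REX libraries lay outside all 12 control libraries made up 2.04%, 0.81% and 2.07% of all genes at the successive time points. NCBP1 differed between the arms as well. At 12 h it stood at 51940 to 63930 CPM under T-REX, 34590 to 49370 with light alone, 52800 to 74040 with probe alone and 30800 to 40600 with DMSO. T-REX thus lay above light alone and DMSO and overlapped with probe alone. The same held at 6 h, with 65770 to 80150 CPM under T-REX, 31600 to 52730 with light alone, 64960 to 90360 with probe alone and 47410 to 61380 with DMSO. At 3 h, NCBP1 overlapped between T-REX (55600 to 92200 CPM) and each control. The part of NCBP1 in the KDM3A values was not tested.

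KDM7A (ENSG00000006459) was the only other member called in a T-REX comparison in the main fit, which held no covariates. At 3 h its level overlapped between the arms, with T-REX libraries at 104.6, 94.86, 90.83 and 93.64 CPM and control libraries from 87.49 to 109.1. At 6 h the T-REX libraries held 123.5, 120.0, 134.1 and 122.5 CPM, and the controls ran from 104.5 to 122.7, a small overlap. At 12 h the T-REX libraries held 163.4, 156.0, 152.9 and 155.1 CPM, above all 12 controls. Light alone gave 137.3, 129.5, 127.6 and 132.9 CPM at 12 h. Probe alone gave 135.5, 136.8, 128.1 and 143.5 CPM, and DMSO 120.9, 135.2, 147.2 and 132.7 CPM. The log2 fold change of T-REX at 12 h was 0.25 (SE 0.055) against light alone and 0.23 (SE 0.055) against DMSO, both called, and 0.20 (SE 0.055) against probe alone, not called. Leaving out T-REX replicate 1, or light alone replicate 2 or 3, lost the call against light alone. At 6 h the values were 0.15, 0.12 and 0.10, in the same order, and at 3 h they lay between −0.06 and 0.04, none of them called.

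The other 8 members were not called in any of the 9 T-REX comparisons in the main fit. Some were called when the authors' factors of unwanted variation were added as covariates, as given below. KDM3B, the closest relative of KDM3A with the same H3K9 substrate, showed values from −0.07 to 0.16, the highest against DMSO at 12 h, and its T-REX libraries overlapped with the controls at each time point. At 3 h, KDM3B was at 190.8, 198.1, 177.4 and 180.5 CPM under T-REX, and at 188.1, 194.1, 199.9 and 203.9 CPM with DMSO. The H3K9 and H3K36 demethylases KDM4A and KDM4C lay within 0.13 and 0.11 of 0 on the log2 scale, and KDM5B within 0.13. KDM6A, an H3K27 demethylase, lay between −0.11 and 0.11, and KDM2A between −0.15 and 0.10. KDM4B and KDM6B reached 0.25 against probe alone at 3 h, with the widest spread between replicates of all members. The median of the 9 members other than KDM3A lay between −0.08 and 0.07 in the 9 comparisons, and the median of all genes between −0.0019 and 0.031.

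**Figure D2:**
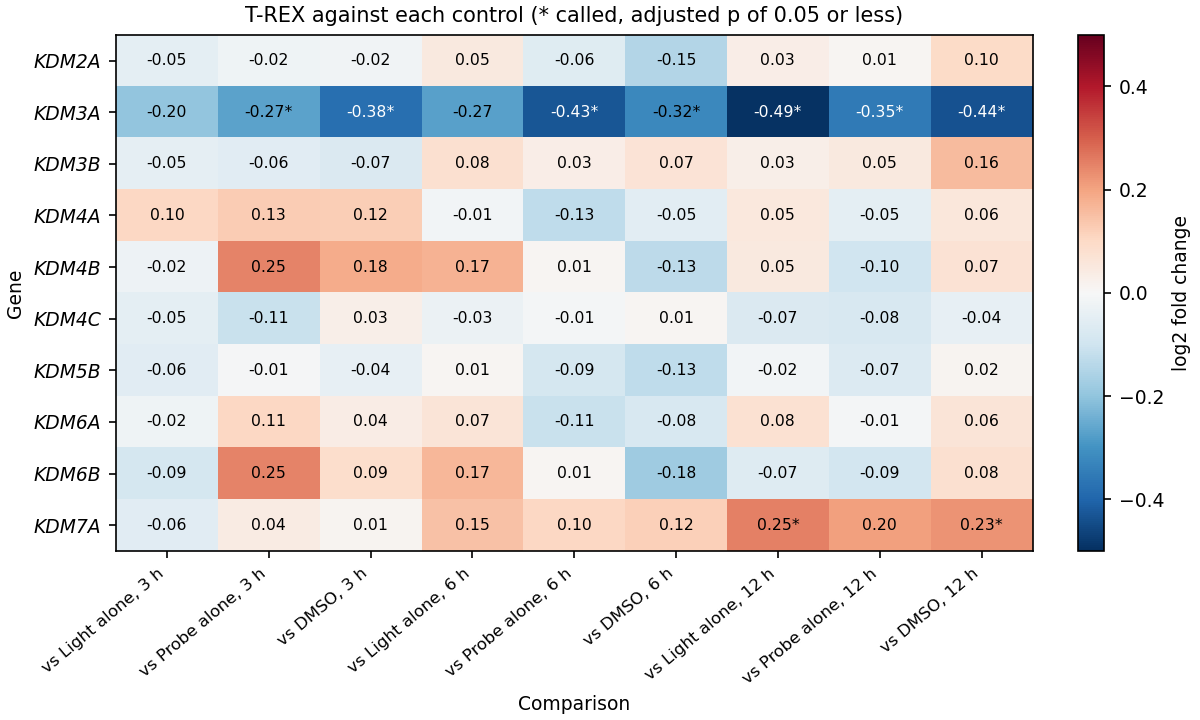
Log2 fold change of T-REX against each control for the 10 members (rows) in 9 comparisons (columns). An asterisk marks an adjusted p of 0.05 or less over all genes, which for these members describes how they were chosen. KDM3A is negative in each column (−0.49 to −0.20), and KDM7A is positive at 6 and 12 h.

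The controls were compared with each other by edgeR's quasi-likelihood F-test, since the choice of members did not use these contrasts, although it used the same control libraries. None of the 10 members was called in the 9 comparisons of controls, and 11 of the 90 values had an unadjusted p of 0.05 or less. Of all 14685 genes, 751 to 3422 per comparison had such an unadjusted p, both extremes in probe alone against DMSO (3 h and 12 h). The count of 11 is therefore not read as a result about the members. The share of all genes called was 0.00681% for light alone against DMSO at 3 h, 0.00681% for probe alone against DMSO at 3 h and 0.232% for light alone against probe alone at 3 h. At 6 h it was 0.00681%, 0.0272% and 0.0613%, and at 12 h 0.0136%, 5.11% and 0.415%, in the same order. With the same counts, DESeq2 called none of the 90 either, and limma on the deposited log2 CPM called none. A fit that adds the authors' 2 factors of unwanted variation as covariates called 15. The share of all genes called in that fit is not given here, so nothing about the members is read from this count. KDM3A was lower with light alone than with DMSO at 3 h by a log2 fold change of −0.18 (SE 0.051), with an edgeR adjusted p of 0.339, and this value was called in the fit with the 2 factors (adjusted p of 0.00254). Over the alternatives that keep all libraries, its adjusted p ran from 0.00254 to 0.36. In the other control comparisons the KDM3A value lay between −0.16 and 0.14.

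Among the controls, the largest differences belonged to KDM6B and KDM4B. With light alone at 3 h, KDM6B was at 65.3, 86.4, 87.42 and 59.65 CPM, and with probe alone at 61.13, 48.26, 65.69 and 64.99 CPM. These groups overlapped, and the log2 fold change was 0.33. At 6 h, light alone lay on the other side, with KDM6B at 61.51, 56.32, 50.79 and 68.43 CPM against 70.23, 72.14, 89.73 and 69.14 CPM with DMSO (log2 fold change −0.35). Neither value was called in the main fit, and both were called with the authors' factors of unwanted variation as covariates. A test of whether the effect of light alone or probe alone, against DMSO, differed between time points, in 1 fit of the 48 libraries, gave no adjusted p below 0.135 in 40 tests over the members.

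Changes with time were tested within each arm in 1 fit of the 48 libraries. The share of all genes called at 6 h against 3 h was 23.3% for T-REX, 25.3% for light alone, 21.5% for probe alone and 16% for DMSO. At 12 h against 3 h it was 41.7%, 39.4%, 42.3% and 38.8%. Of the 10 members, 3, 5, 3 and 1 were called at 6 h, in the same order of arms. At 12 h, 3 to 5 per arm were called, a share close to that of all genes. Over the 8 comparisons, 8 members were called at least once. That share was not computed for all genes, so nothing is read from it. The time after the reaction and separate handling of the time points cannot be told apart.

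KDM7A rose with time in each of the 4 arms. With DMSO it went from 99.88, 92.86, 90.42 and 97.94 CPM at 3 h to 115.9, 114.7, 108.7 and 120.3 CPM at 6 h and 120.9, 135.2, 147.2 and 132.7 CPM at 12 h, and the 3 h libraries overlapped with neither later group. Its log2 change from 3 to 12 h was 0.49 (SE 0.058) with DMSO, at an edgeR adjusted p of 2.01e-09. It was 0.40 with light alone (adjusted p of 1.94e-07), 0.53 with probe alone (2.33e-10) and 0.71 with T-REX (5.42e-14). At 6 h the rise was 0.38 with T-REX (adjusted p of 1.98e-06), 0.30 with probe alone (9.81e-05), 0.27 with DMSO (0.000663) and 0.18 with light alone (0.0195). With light alone at 6 h, the KDM7A call did not hold without replicate 2 or 4 of 3 h or replicate 3 of 6 h. Whether the rise of KDM7A differed between the arms was not tested.

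KDM3A rose from 3 to 12 h in each arm as well. The log2 change was 0.59 (SE 0.068) with light alone, at an adjusted p of 1.12e-09. It was 0.36 (SE 0.068) with probe alone (adjusted p of 2.55e-05), 0.35 (SE 0.068) with DMSO (5.16e-05) and 0.29 (SE 0.068) with T-REX (0.000512). At 6 h it had risen with probe alone by 0.26 (adjusted p of 0.00423) and with light alone by 0.19 (adjusted p of 0.0383), and the values of 0.05 with DMSO and 0.11 with T-REX were not called. In light alone at 6 h, 5 of the 8 fits that leave out 1 library of 3 or 6 h lost the KDM3A call. Whether the rise of KDM3A differed between T-REX and the controls was not tested, because the group was chosen on T-REX values. For the same reason, the change of KDM3A or any other member within T-REX is a description, and its adjusted p supports nothing. The control libraries also took part in the comparisons that chose the group.

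KDM2A, KDM4A, KDM3B and KDM5B were called lower with time in at least 1 arm. KDM2A, an H3K36 demethylase of CpG islands, was called lower in 6 of 8 comparisons, with log2 changes from −0.30 (light alone, 6 h) to −0.17. With light alone it went from 149.4, 132.3, 133.2 and 138.0 CPM at 3 h to 122.5, 118.0, 120.1 and 119.7 CPM at 12 h without overlap (log2 change −0.20, SE 0.058, adjusted p of 0.00403). In probe alone at 6 h, the KDM2A call was lost without replicate 1, 3 or 4 of 3 h or replicate 1 of 6 h, and in T-REX at 6 h without replicate 3 of 6 h. KDM4A fell in T-REX from 20.4, 22.52, 25.17 and 18.42 CPM at 3 h to 19.64, 16.69, 14.96 and 15.22 CPM at 6 h, by 0.38 on the log2 scale (adjusted p of 0.00133), although the groups overlapped. KDM4A was also called in T-REX at 12 h (−0.24, adjusted p of 0.0268) and with light alone at 6 h (−0.27, adjusted p of 0.0233), and these calls were lost in 4 of 8 and 3 of 8 fits without a library. KDM3B was called lower in DMSO at 12 h (−0.22, adjusted p of 0.00156), and KDM5B with light alone at 6 h (−0.14, adjusted p of 0.0248), the latter lost in 3 of 8 such fits. KDM4A overlaps an annotated antisense gene, and whether the counting used strand is not given in the sources used here, so reads from either cannot be told apart.

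KDM4B and KDM6A, the remaining members called with time, were called higher in probe alone at 12 h. KDM4B went from 33.19, 30.41, 36.1 and 39.48 CPM at 3 h to 46.02, 51.41, 53.66 and 55.66 CPM at 12 h (log2 change 0.57, SE 0.16, adjusted p of 0.00381) with no overlap, and its values at 12 h were 0.35 with DMSO, 0.25 with T-REX and 0.18 with light alone, not called. KDM6A rose by 0.16 in probe alone at 12 h (adjusted p of 0.0291), a call lost without replicate 1 or 3 of 3 h or replicate 4 of 12 h. Whether these changes differed between the arms was not tested. KDM4C and KDM6B were not called in any comparison of the main fit.

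**Figure D3:**
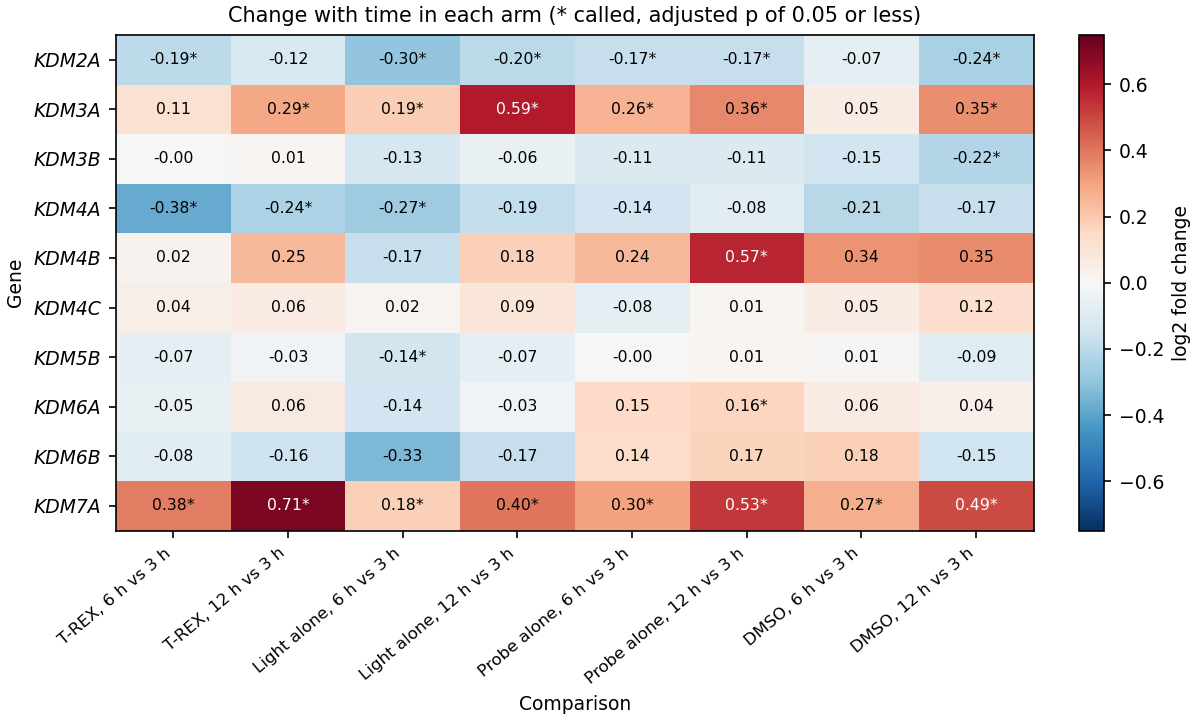
Log2 change from 3 h to 6 and 12 h within each arm (columns) for the 10 members (rows). An asterisk marks an adjusted p of 0.05 or less over all genes. KDM7A is positive and called in all 8 columns (0.18 to 0.71), KDM3A is positive in all 8, and KDM2A is negative in all 8.

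KDM4B and KDM6B varied together between replicates. In T-REX at 3 h, KDM4B was at 27.04, 33.83, 49.13 and 53.23 CPM, and KDM6B at 52.0, 58.67, 95.55 and 75.61 CPM, so that the same 2 libraries were high in both. Over the 48 libraries, after centring each gene on its arm and time point, the correlation of the pair was r = 0.838, the highest of the 45 pairs of members. KDM3A went the other way, with r of −0.58 with KDM6B and −0.54 with KDM4B. Its r was −0.55 with KDM2A and 0.34 with KDM4C. These points share their library, so they also share its composition and depth. The first of the authors' 2 factors of unwanted variation, a score per library, moved with the same values. At 3 h, its r over 16 libraries was −0.952 with KDM6B, −0.909 with KDM4B and 0.827 with KDM3A, each centred on its arm. At 6 h the r was 0.781, 0.885 and −0.489, and at 12 h −0.774, −0.806 and 0.551. The factor was not particular to these genes. Its r was 0.887 with KDM6A at 3 h, and 0.91 and −0.811 with KDM2A at 6 and 12 h. With KDM4A it was −0.146, 0.185 and −0.291 at the successive time points. The sign of such a factor is arbitrary and set anew at each time point. These factors were computed from the same counts. With both factors as covariates, the KDM3A value in the 9 T-REX comparisons lay between −0.49 and −0.20. In the same fit, the T-REX values of KDM4B and KDM6B relative to probe alone at 3 h were 0.22 and 0.23, and both were called.

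**Figure D4:**
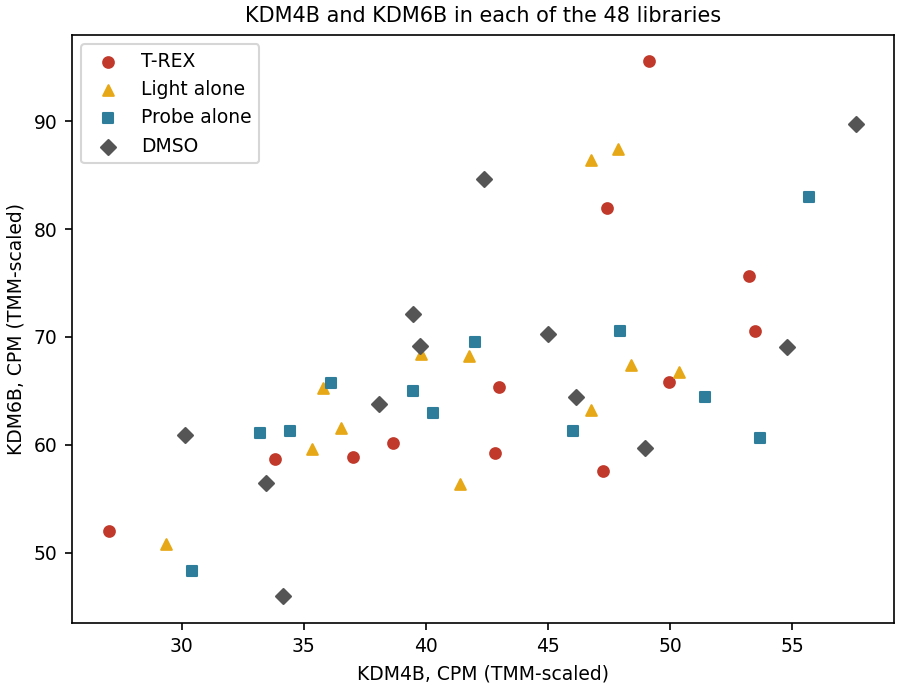
Level of KDM6B against KDM4B in each of the 48 libraries, in CPM scaled by TMM factors. Color and shape mark the arm, and time points are not marked apart. The arms are mixed along the cloud, and the 2 genes vary together between libraries of 1 arm.

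Genes whose pattern was most like that of KDM3A were sought among the 9578 genes with a mean of 10 CPM or more, over the 48 libraries. After centring on the mean of each time point, the 6 highest values of r were those of BNIP3L (0.905), PDK1 (0.881), MXI1 (0.879), AK4 (0.863), RLF (0.859) and CXCR4 (0.859). This centring keeps the difference between T-REX and the controls, on which KDM3A was chosen. A gene lower under T-REX can rank high for that reason alone, so this order is a description. BNIP3L is a mitophagy receptor, PDK1 a kinase that holds back pyruvate dehydrogenase, MXI1 an antagonist of MYC, AK4 a mitochondrial adenylate kinase and CXCR4 a chemokine receptor. After centring on arm and time point, which leaves only differences between replicates, the 6 highest values included AK4 (0.819), PDK1 (0.819), BNIP3L (0.758), ENSG00000259820 (0.743) and RLF (0.729). The median r over all these genes was 0.024 and 0.083, respectively. With Spearman's rho, 4 of the 6 were again among the first 6 in each case. No other member came near, and the highest was KDM5B at 0.28 after the first centring and KDM4C at 0.34 after the other. BNIP3L stood at 115.4 to 127.4 CPM in T-REX at 12 h against 141.7 to 209.5 CPM in the 3 controls.

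**Figure D5:**
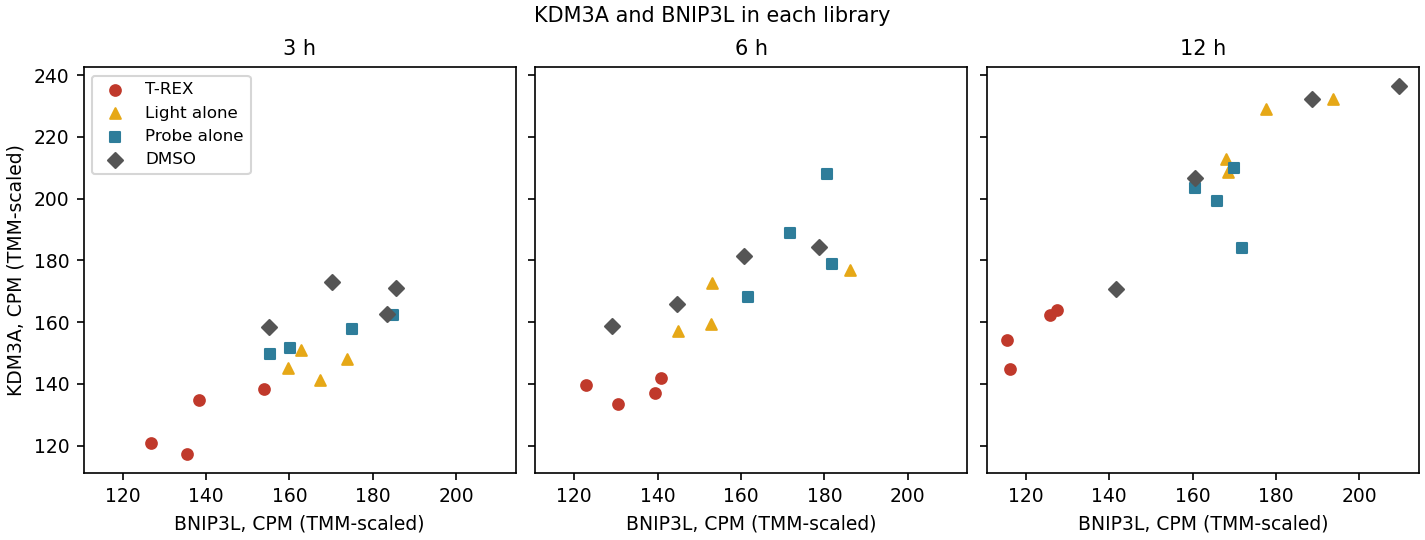
Level of KDM3A against BNIP3L, the gene with the highest Pearson r after centring on the time point, in each library at 3, 6 and 12 h, in CPM scaled by TMM factors. At 12 h the T-REX libraries (115.4 to 127.4 CPM of BNIP3L) lie apart at the lower left, and the DMSO library nearest to them holds 141.7 CPM of BNIP3L and 170.6 CPM of KDM3A.

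Genes outside the group were tested in the T-REX comparisons from lists of the same pathway. These lists, and those of the paragraphs below, were chosen with earlier results of these data known. Their counts and p-values are therefore not independent of that choice. Of 19 other JmjC-domain genes, 16 were measured, and 1 was called in 9 comparisons: JARID2, a Polycomb cofactor without demethylase activity, was lower at 12 h against probe alone (log2 fold change −0.24, edgeR adjusted p of 0.0245), and it is named after its value was seen. The 2 amine oxidase demethylases, the 2 H3K27 methyltransferases and the 5 H3K36 methyltransferases had no call in these comparisons. The 6 H3K9 methyltransferases add methyl groups to the residue on which KDM3A acts. Of these, SETDB1 was higher against DMSO at 3 h (0.23, adjusted p of 0.0154) and 12 h (0.28, adjusted p of 0.0118). SETDB1 was also higher in probe alone than in DMSO at 12 h (0.25, adjusted p of 0.038), so probe alone showed the same call without light. Of the 6 H3K4 methyltransferases, KMT2A was higher against DMSO at 12 h (0.17, adjusted p of 0.0201).

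Of 18 enzymes that make or use 2-oxoglutarate, succinate and fumarate, the cosubstrate, product and inhibitor of these demethylases, IDH1 was called lower against 2 controls at 1 time point. IDH1, the cytosolic isocitrate dehydrogenase, was lower at 3 h against probe alone (−0.39, edgeR adjusted p of 0.00675) and DMSO (−0.24, adjusted p of 0.0327), and was also lower in light alone than in probe alone (−0.30, adjusted p of 0.0458). At 12 h it was lower relative to DMSO (−0.26, adjusted p of 0.0322). Both IDH1 calls relative to DMSO were lost in 5 of 8 fits without a library. Against DMSO, the succinate dehydrogenase subunits SDHC and SDHD were lower at 3 h (−0.25 and −0.29) and 12 h (−0.38 and −0.28), and IDH3A at 12 h (−0.17), and SDHC and IDH3A were also lower in probe alone than in DMSO at 12 h. The median of this list lay between −0.08 and −0.05 in the comparisons with these calls, next to 0.0031 to 0.031 for all genes.

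Of 25 hypoxia-inducible genes, a list to which KDM3A is known to belong but which was counted here without it, 24 were measured. This list too was chosen with earlier results of these data known. At 12 h, 13 were called lower relative to light alone, 10 relative to probe alone and 11 relative to DMSO, none was called higher, and the medians were −0.49, −0.43 and −0.41, next to 0.00091, 0.0014 and 0.0031 for all genes. KDM4B, which is also known as a HIF target, showed log2 fold changes of 0.05, −0.10 and 0.07 at 12 h, in the same order, none of them called. BNIP3, a mitophagy receptor, showed log2 fold changes of −0.81, −0.89 and −0.78 at that time, in the same order (edgeR adjusted p of 7.79e-05, 1.61e-05 and 3.41e-05). LDHA, lactate dehydrogenase A, showed −0.69, −0.63 and −0.72 (adjusted p of 0.000159, 0.000545 and 3.41e-05), and EGLN3, a prolyl hydroxylase that marks HIF for degradation, −0.57, −0.70 and −0.74 (adjusted p of 0.00958, 0.00266 and 0.000357). Without T-REX replicate 1 or light alone replicate 3, EGLN3 was no longer called against light alone, and the BNIP3 and LDHA calls at 12 h were kept in each fit without a library. At 3 h, BNIP3L, MXI1 and PDK1 were called lower against probe alone and DMSO, with log2 fold changes from −0.34 to −0.24, and EGLN3 relative to DMSO, while STC2, a secreted glycoprotein, was higher relative to light alone (0.29) and DMSO (0.21). The calls relative to probe alone at 3 h were lost in 5 of 8 fits without a library for BNIP3L and for MXI1 and in 2 of 8 for PDK1, and the EGLN3 call relative to DMSO in 4 of 8. PDK1 was also called lower in light alone than in probe alone at 3 h (−0.41, adjusted p of 0.0077), and its T-REX value relative to light alone was 0.07. At 6 h, BNIP3, EGLN3 and PDK1 were called lower against probe alone, and none against the others. Leaving out 1 library moved the counts at 12 h to 10 to 14, 6 to 13 and 10 to 14, and those at 6 h against probe alone to 0 to 4. With all libraries kept, edgeR and the other ways of fitting gave 0 to 6 called genes at 6 h relative to light alone, 3 to 11 relative to probe alone and 0 to 8 relative to DMSO, and 0 to 9 at 3 h relative to probe alone. In the same arms over time, 7 of the 24 were called higher and 2 lower from 3 to 12 h under T-REX. In DMSO cells 15 were higher and 1 lower, in probe alone 18 and 1, and in light alone 19 and 0. The shares of all genes called in either direction were 41.7% for T-REX, 38.8% for DMSO, 42.3% for probe alone and 39.4% for light alone. The T-REX count is near that share and is not read as a result about the list. The list medians over time were 0.13 under T-REX and 0.42, 0.47 and 0.72 in these 3 controls. The comparisons with T-REX share the T-REX libraries, and whether the change over time differed between arms was not tested.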

How the data were processed

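RNA-seq of HEK293T cells in 4 arms at 3, 6 and 12 h was used, with 4 libraries per group and groups taken from the labels. The authors prepared libraries with TruSeq Stranded mRNA reagents (the methods state ribosomal RNA depletion in place of poly(A) selection) for a NovaSeq. The authors deposited raw read counts per gene, log2 CPM, and RUV factor scores per library. For RNA-seq software, their Reporting Summary names Cufflinks, TopHat and cutadapt. The step that made the gene counts, its annotation and its genome build are not given in the sources used here. Another deposited kind of table, corrected by those factors, was not used.

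Counts were fitted with edgeR 4.0.16 in R 4.3.3 (TMM, filterByExpr, robust dispersion, quasi-likelihood F-test), with the 16 libraries of a time point in 1 fit for comparisons of arms and all 48 in 1 fit for time. The filter removed 0 of 14685 genes. p-values were adjusted by Benjamini-Hochberg within each comparison. The paper calls the replicates independent biological ones, and the labels number them without naming cultures. On data simulated for T-REX against DMSO (14685 genes), the fit called 72% (3 h), 73% (6 h) and 79% (12 h) of genes changed by 0.5 on the log2 scale, and 5.06%, 5.46% and 4.79% of its calls were false. The changed genes were drawn from those with high mean counts, and the simulation held no variation shared between genes. Recovery and the false share may therefore be worse in the real libraries. Alternatives were DESeq2 1.42.0, RLE factors, no filter, the replicate number as a block, 2 RUV factors, only the 2 groups compared, limma 3.58.1 on the log2 CPM, and leaving out each library. Exon lengths are from GENCODE 29, which held 14556 of the identifiers, and promoters from RefSeq. Tables and figures were made in Python 3.11.15.

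The members and gene lists were chosen with earlier results of these data known. From each list, up to 3 genes per direction and time point were named, by the mean log2 fold change among those called alike against at least 2 of 3 controls. Of the genes like KDM3A, the first 6 per centring were taken, and 1 of them is not reported here. SETDB1, KMT2A, SDHC, SDHD, IDH3A and JARID2 were named after their values were seen.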

Additional observations from a re-analysis of the deposited data

Results flagged for a closer look

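Each member's level was checked in each of the 12 groups for 1 library far from the other 3, and 8 of 120 groups had such a library by Dixon's test, where chance alone gives about 1 in 20. For KDM2A, DMSO replicate 3 at 3 h was high at 145.1 CPM. For KDM3B, light alone replicate 3 at 12 h was high at 200.2 CPM, and probe alone replicate 4 at 12 h was low at 174.6 CPM. For KDM4A, DMSO replicate 1 at 12 h was high at 19.35 CPM. KDM6A was low in replicate 2 at 6 h in both light alone (211.7 CPM) and probe alone (247.9 CPM). KDM6B was high in probe alone replicate 4 at 12 h (83.02 CPM) and in DMSO replicate 3 at 6 h (89.73 CPM). No such library was seen for KDM3A or KDM7A.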

How the results depend on the processing

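Calls of members in T-REX comparisons rest on the values that chose the group and are given as a description. No called member value changed sign in the alternatives that were run, while 139 of the 3740 values did so without being called in either fit. RLE factors, no filter on low counts and limma on the deposited log2 CPM changed no number of called members by over 1.5 times. With DESeq2, the KDM3A value relative to light alone was also called at 3 h (−0.20) and 6 h (−0.28). DESeq2 raised the number of called members from 0 to 1 in both of those comparisons, from 1 to 2 in T-REX relative to probe alone at 12 h, and from 1 to 2 in DMSO from 3 to 6 h. With the 2 RUV factors as covariates, KDM3A was called relative to light alone at 3 h (−0.20) and 6 h (−0.27). The number of called members in the T-REX comparisons became 1 (light alone) and 3 (probe alone) at 3 h, 2 (light alone) and 3 (DMSO) at 6 h, and 2 (probe alone) and 4 (DMSO) at 12 h. Besides KDM3A and KDM7A, KDM4B and KDM6B were called relative to probe alone at 3 h. KDM2A was called relative to DMSO at 6 and 12 h, with KDM5B at 6 h and KDM3B at 12 h. In the control comparisons, where edgeR without these factors called 0, the number of called members became 3 for light alone relative to DMSO and 3 relative to probe alone at 3 h. It became 5 and 1 for the same 2 comparisons at 6 h, and 1 for light alone and 2 for probe alone relative to DMSO at 12 h. The share of all genes called with these factors is not given here, so these counts are not read as a result about the members. In fits of only the 2 groups compared, the KDM3A call relative to probe alone at 3 h was lost (−0.27, 0 members called). T-REX then had 2 called members relative to probe alone and 1 relative to DMSO at 12 h. From 3 to 6 h there were 2 in light alone, 5 in probe alone and 2 in DMSO. The cause of these differences was not tested.

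The replicate numbers were not treated as pairs: over 72 pairs of same-numbered libraries of 1 time point, the r of their deviations had a median of 0.0023 (−0.643 to 0.58), and 31 were over 0.1. With the replicate block, the KDM3A value in the 9 T-REX comparisons ran from −0.49 to −0.20, with 7 called as without the block, and the calls of members over time went from 27 to 29, with KDM6A added at 6 h in light alone (−0.14) and probe alone (0.14).

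Without 1 library, the KDM3A value lay between −0.30 and −0.23 relative to probe alone at 3 h (call lost without T-REX replicate 4 or probe alone replicate 1 or 2), and between −0.36 and −0.29 relative to DMSO at 6 h (lost without T-REX replicate 1, 2 or 4). Relative to probe alone at 12 h it lay between −0.39 and −0.32 (lost without T-REX replicate 1, 2 or 4 or probe alone replicate 1, 2 or 3). Relative to light alone at 6 h it lay between −0.30 and −0.24, and was called without light alone replicate 4. The number of called members then ran from 0 to 1 in T-REX relative to probe alone at 3 h, light alone at 6 h and DMSO at 6 h. It ran from 1 to 2 relative to light alone and 0 to 2 relative to probe alone at 12 h. Among the controls it ran from 0 to 1 for light alone relative to DMSO at 6 h (1 without light alone replicate 4) and for probe alone relative to DMSO at 12 h (1 without DMSO replicate 4). In light alone from 3 to 6 h it ran from 2 to 6, and in the other time comparisons it stayed within 1.5 times.

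With 4 libraries per group, an absent call does not show that a member was unchanged. KDM4B and KDM6B, with the widest spread between replicates, give the least precise values.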
